A study of Mus musculus with 6 samples.

Results

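The adhesion genes described here are the laminin chains, the integrin α and β subunits and the numbered cadherins, together with *Fn1*, *Nid1*, *Nid2*, *Hspg2*, *Sparc* and *Vtn*. Members were chosen by gene symbol, with earlier results of these data known, and the blood and endothelial genes *Itga2b* and *Cdh5* were left out. Of the 20280 genes in the deposited expression table, 59 were members, namely 11 laminin chains, 12 integrin α subunits, 8 integrin β subunits, 22 cadherins and the 6 matrix genes. The expression data came from 6 RNA-seq libraries of FVB/N mouse embryos at embryonic day 8.5, with 3 wildtype (Tip55+/+) and 3 Tip55 knockout (Tip55Δ/Δ) libraries. In the knockout allele, introns near the 3′ end of *Kat5* are removed and the exons around them are fused, so the Tip55 splice isoform is lost in every tissue while the coding sequence of the other isoforms stays. Both genotypes came from intercrosses of heterozygotes, and whether a library held 1 embryo or a pool is not given in the sources used here.

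Laminins are trimers of an α, a β and a γ chain, and they polymerise into the sheet on which a basement membrane is built. Nidogens and the proteoglycan perlecan link that sheet to the collagen IV network, and fibronectin forms a separate fibrillar matrix. Integrins are αβ dimers through which a cell holds on to laminin, fibronectin or vitronectin, whereas cadherins bind like cadherins on the next cell and are anchored to actin by catenins. In the embryo at this stage, E-cadherin (*Cdh1*) marks surface ectoderm and endoderm, and N-cadherin (*Cdh2*) marks the neural tube, somites and heart.

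The deposited table gives, for each gene, ratios of Tip55Δ/Δ over Tip55+/+ and the posterior probability of differential expression (PPDE) from EBSeq, and no value per library. A gene is called higher or lower here when its PPDE is over 0.95. Mean normalized counts per library were recovered for each genotype from the pair of ratios, and the bounds after each ratio are its 95% Clopper-Pearson limits. They were worked out from the recovered mean times the 3 libraries of each genotype. That product is a sum of normalized counts and not of reads, so the limits are approximate. They cover counting error only, since the exact binomial model knows nothing of the difference between embryos. PPDE also takes in the spread between libraries, which could not be measured from the table. The replicate error of a member is therefore known only through its PPDE, and embryos could not be tested against each other. Summed over genes, the recovered means came to 49138051 normalized counts in Tip55+/+ and 47211544 in Tip55Δ/Δ embryos. In whole embryos, fewer cells of a type and less RNA per cell cannot be told apart.

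At this threshold 7 of the 59 members rose in Tip55Δ/Δ embryos and 1 fell. The risers included the laminin chain *Lama2*, the integrin subunits *Itga4*, *Itga8* and *Itgb5*, and the cadherins *Cdh20* and *Cdh13*. The one that fell was the cadherin *Cdh24*. The share of members called higher was 11.9%, beside 5.25% of all genes listed, and the share called lower was 1.69%, beside 7.11% of all genes listed. Over all members, 30 had a PostFC (the ratio that EBSeq draws toward 1) over 1 and 29 had one under 1. Their median log2 PostFC was 0.0034, beside 0.0099 over all genes. The counting interval excluded 1 on the low side for 21 of the 58 members with a recovered mean (36.2%, beside 30.0% of all genes) and on the high side for 19 (32.8%, beside 28.7% of all genes).

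**Figure D1:**
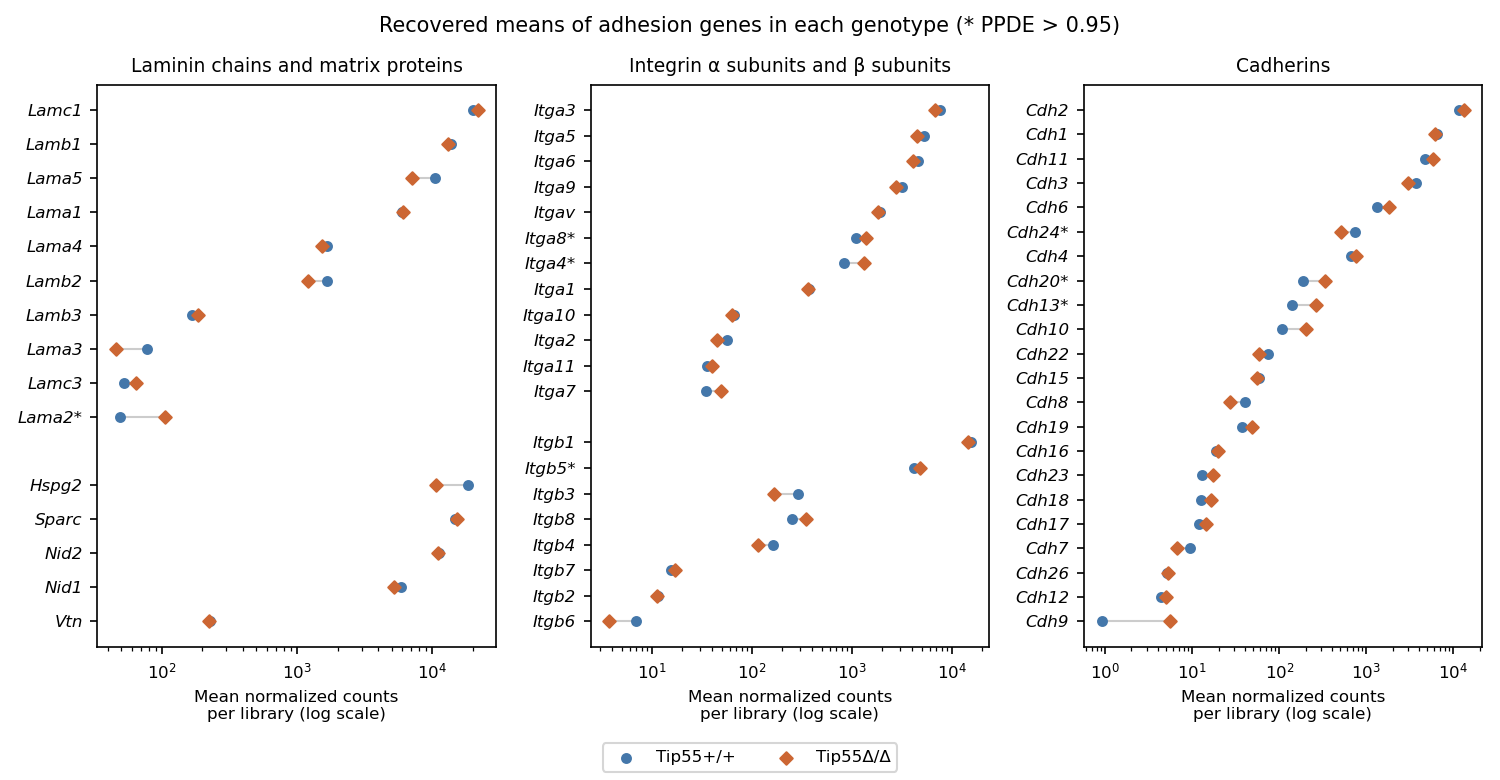
Recovered mean normalized counts per library (log axis) of 57 adhesion genes in Tip55+/+ (circles) and Tip55Δ/Δ (diamonds) embryos, ordered by the Tip55+/+ mean within each family. *Fn1* has no recovered mean and is not drawn. Asterisks mark the 7 drawn genes with a PPDE over 0.95. Most pairs of symbols overlap or nearly do, and the wide gaps among abundant genes are those of *Hspg2* and *Lama5*.

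The promoters of the called integrin and cadherin genes are shown first, because these are the stretches of sequence nearest to the transcripts that moved. RefSeq windows of 300 bases (GRCm38.p6), from 250 bases before the start site to 50 after it, were held for 37 members in 42 entries. They included 6 of the 8 called members. The integrins *Itga4* and *Itgb5* and the cadherin that fell are printed in the direction of transcription, 5′ to 3′, with each CG dinucleotide in capitals. *Itga4* lies on the plus strand at chr2:79255176-79255475 and holds 10 CG dinucleotides, *Itgb5* lies on the plus strand at chr16:33829415-33829714 and holds 20, and *Cdh24* lies on the minus strand at chr14:54641315-54641614 and holds 30.
Itga4: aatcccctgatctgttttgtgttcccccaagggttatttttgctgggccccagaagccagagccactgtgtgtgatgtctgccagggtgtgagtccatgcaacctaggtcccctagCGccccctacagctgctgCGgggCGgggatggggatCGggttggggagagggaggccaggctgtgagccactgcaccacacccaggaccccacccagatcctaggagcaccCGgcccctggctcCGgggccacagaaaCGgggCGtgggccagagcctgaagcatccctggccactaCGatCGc
Itgb5: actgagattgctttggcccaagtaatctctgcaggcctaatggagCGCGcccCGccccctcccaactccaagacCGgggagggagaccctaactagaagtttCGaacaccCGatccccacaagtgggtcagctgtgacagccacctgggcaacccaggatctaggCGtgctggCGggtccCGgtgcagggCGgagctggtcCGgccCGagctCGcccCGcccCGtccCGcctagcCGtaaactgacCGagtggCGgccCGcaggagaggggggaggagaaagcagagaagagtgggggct
Cdh24: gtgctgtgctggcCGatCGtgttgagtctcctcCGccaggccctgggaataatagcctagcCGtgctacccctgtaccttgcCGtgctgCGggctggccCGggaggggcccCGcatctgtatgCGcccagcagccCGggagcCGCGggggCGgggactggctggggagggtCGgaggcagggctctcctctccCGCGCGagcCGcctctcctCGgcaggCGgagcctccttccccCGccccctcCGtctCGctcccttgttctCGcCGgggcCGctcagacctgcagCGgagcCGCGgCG
The median over the 42 member entries was 12 CG dinucleotides, and over all 32851 promoter entries it was 7. *Cdh20* had 18 and *Itga8* 23. *Lama2* had 1, in a window whose RefSeq start lies inside the gene as GENCODE draws it. The 5 risers with an entry thus ran from 1 to 23, and the uncalled members from 2 to 38. The letters CACCTG or their reverse complement CAGGTG, the E-box that Snail and Zeb repressors are known to bind, occurred in 13 of the 42 member entries (30.95%) and in 20.21% of all promoters of the same length. Of the 6 called members with an entry, *Itgb5* alone held it. No window was held for *Cdh1*, *Cdh2*, *Cdh3*, *Cdh11* or *Fn1*. All windows of *Cdh7* held the E-box, so the 13 entries come from fewer genes. Entries of *Itga9*, *Sparc*, *Lamb3* and *Itgb6* with the E-box lie inside the gene, as that of *Lama2* does. So do those of *Cdh12* and *Cdh18*, and the CG and E-box values thus include windows away from the GENCODE start. The median GC content was 59.17% over the member entries and 52.67% over all promoters.

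Laminin-111, the trimer of *Lama1*, *Lamb1* and *Lamc1* that first lines the embryo's epithelia, had chain ratios between 0.964 and 1.08. *Lama1* stood at 5949 normalized counts in Tip55+/+ and at 6108 in Tip55Δ/Δ embryos, a ratio of 1.03 (1.01 to 1.05). *Lamb1* had 13654 and 13168 (ratio 0.964, 0.951 to 0.978). *Lamc1*, the γ chain of most embryonic laminins, had 20092 and 21639 (ratio 1.08, 1.07 to 1.09). The PPDE of each of these 3 chains was under 0.006. Of the nidogens that link laminin to collagen IV, *Nid1* was at 5859 and 5233 normalized counts (ratio 0.893, 0.874 to 0.913) and *Nid2* was at 11206 and 10971 (ratio 0.979, 0.964 to 0.994). *Nid1* and *Nid2* share annotated bases with *Gm48682* and *Rtraf*, and the libraries do not keep the strand. *Sparc*, a collagen-binding matricellular protein made in quantity by parietal endoderm, had 14614 and 15127 (ratio 1.04, 1.02 to 1.05). None of these matrix genes was called.

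*Lama2*, the α chain of muscle laminin on chromosome 10 from 26980036 to 27619758, rose from 49.5 to 106 (ratio 2.15, 1.76 to 2.63, PPDE 0.995), the highest ratio among the called members. It shares bases with *Gm48084*, and its reads cannot be assigned to a strand. *Lamb3*, an epithelial β chain, had 168 and 184 normalized counts (ratio 1.10, 0.972 to 1.24, PPDE 0.00883), and *Lama3*, an epithelial α chain that overlaps *Gm29200*, had 77.9 and 45.6 (ratio 0.584, 0.470 to 0.725), with a PPDE of 2.58e-11. Neither of these chains was called.

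*Lamb2*, *Lama5* and perlecan had lower means without a call. *Lamb2*, the β chain that replaces *Lamb1* in many mature basement membranes, had 1653 and 1208 normalized counts (ratio 0.731, 0.700 to 0.763), and its PPDE of 0.938 put it first among the members under the threshold. *Lama5*, the α chain that takes over from *Lama1* in later epithelia, had 10442 and 7070 (ratio 0.677, 0.665 to 0.689) with a PPDE of 0.147. *Hspg2*, which encodes perlecan, had 18423 and 10595 (ratio 0.575, 0.567 to 0.583) with a PPDE of 0.567. The *Lama5* and *Hspg2* differences were larger than counting error, and neither passed the PPDE threshold. *Lama4*, found in vessel walls, had 1659 and 1527 (ratio 0.920, 0.884 to 0.958), and *Lamc3* had 52.9 and 64.2 (ratio 1.21, 0.978 to 1.51, not detectable at this depth) and overlaps *Gm13441*.

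Per kilobase of the longest annotated transcript, the α chains summed to 1828 normalized counts in Tip55+/+ and 1530 in Tip55Δ/Δ embryos. *Lama5* made up 50.2% of the Tip55+/+ sum and 40.6% of the Tip55Δ/Δ sum. *Lama1* made up 34.2% and 41.9%, so on this scale *Lama1* was first among the α chains in Tip55Δ/Δ embryos. That order depends on the length used. Per kilobase of the mean transcript length *Lama5* was first in both genotypes, at 3200 and 2167 beside 1417 and 1455 for *Lama1*. *Lama4* held 15.0% and 16.5%. The β and γ chains were dominated by 1 gene each, with *Lamb1* at 87.8% and 90.0% of the β sum and *Lamc1* at 96.3% and 95.1% of the γ sum. *Lama2* held 0.282% of the α sum in Tip55+/+ and 0.722% in Tip55Δ/Δ embryos.

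**Figure D2:**
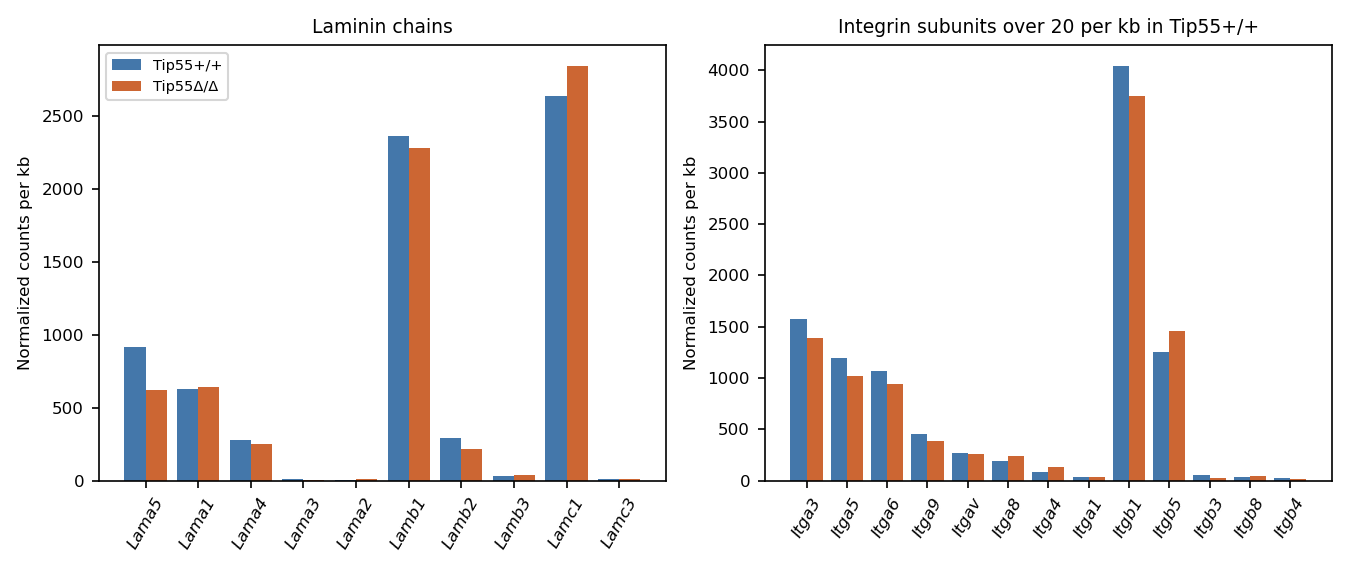
Normalized counts per kilobase of the longest annotated transcript for laminin chains (left) and for the integrin subunits with over 20 per kilobase in Tip55+/+ embryos (right), one bar per genotype mean, without error bars because the table has no value per library. The *Lama5* bar is above the *Lama1* bar in Tip55+/+ and slightly below it in Tip55Δ/Δ embryos, and *Itgb1* stands above every other integrin subunit in both.

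Fibronectin and vitronectin, which RGD-binding integrins recognise, had ratios near 1. *Fn1*, fibronectin, had the highest level of all members per kilobase of the longest transcript, and its genotype means could be given only as a range because its ratios were too near 1. The Tip55+/+ mean lay between 85393 and 99626 normalized counts, or between 10270 and 11981 per kilobase. Its direct ratio in the table was 1.002, with a counting interval from 0.997 to 1.01 and a PPDE of 5.95e-04. *Apol7d* overlaps it. *Vtn*, vitronectin, had 226 and 222 normalized counts (ratio 0.983, 0.882 to 1.10), and no difference was detectable with this many counts.

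Among the α subunits, *Itga4* and *Itga8* rose and the more abundant subunits had ratios a little under 1. *Itga4*, which pairs with β1 or β7 to bind VCAM1 and fibronectin and is known for its part in joining the chorion to the allantois, rose from 824 to 1305 normalized counts (ratio 1.58, 1.51 to 1.67, PPDE 0.999756). It lies on chromosome 2 from 79255426 to 79333123 and overlaps *Cerkl*. *Itga8*, an RGD-binding partner of β1 that receives nephronectin, rose from 1086 to 1373 (ratio 1.26, 1.21 to 1.32, PPDE 0.968). It lies on chromosome 2 from 12106632 to 12301922 and overlaps *E030013I19Rik*. *Npnt*, which encodes nephronectin and belongs to the wider basement membrane list, rose from 2776 to 3174 (ratio 1.14, 1.11 to 1.18, PPDE 0.996).

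The laminin receptors *Itga3* and *Itga6* were not called. *Itga3* had 7640 normalized counts in Tip55+/+ and 6753 in Tip55Δ/Δ embryos (ratio 0.884, 0.867 to 0.901, PPDE 0.0105). *Itga6* had 4623 and 4039 (ratio 0.874, 0.852 to 0.895, PPDE 0.269). *Itga7*, the muscle laminin receptor, had 34.6 and 49.3 (ratio 1.43, 1.10 to 1.85, PPDE 0.152) and overlaps *Mettl7b*. Of the fibronectin receptors, *Itga5* had 5276 and 4482 (ratio 0.849, 0.830 to 0.869, PPDE 0.191), and *Itgav*, which overlaps *Gm13684*, had 1905 and 1806 (ratio 0.948, 0.913 to 0.984, PPDE 0.0167). *Itga9* had 3156 and 2728 (ratio 0.864, 0.839 to 0.890, PPDE 0.0272), and the collagen receptor *Itga2* had 56.2 and 45.1 (ratio 0.802, 0.635 to 1.01). The 4 collagen-binding subunits, none of them called, together summed to 62.0 normalized counts per kilobase in Tip55+/+ and 60.3 in Tip55Δ/Δ embryos.

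The β1 subunit (*Itgb1*), the partner of all 12 α subunits listed, had 15417 normalized counts in Tip55+/+ and 14302 in Tip55Δ/Δ embryos (ratio 0.928, 0.916 to 0.940, PPDE 0.00873). Per kilobase the 12 α subunits summed to 121% of *Itgb1* in Tip55+/+ and to 118% in Tip55Δ/Δ embryos. These percentages depend on the length used. Per kilobase of the mean transcript length the α sum was 10378.5 beside 7629.37 for *Itgb1* in Tip55+/+ embryos. In Tip55Δ/Δ embryos it was 9466.05 beside 7077.54. Of the β subunits that pair with αv besides β1, *Itgb5* alone was called. *Itgb5*, which makes the vitronectin receptor αvβ5, rose from 4127 to 4783 (ratio 1.16, 1.13 to 1.19, PPDE 0.999678), and it lies on chromosome 16 from 33829665 to 33949338. *Itgb8*, known for activating latent TGFβ, had 253 and 349 (ratio 1.38, 1.26 to 1.52, PPDE 0.242). *Itgb3* had 287 and 166 (ratio 0.577, 0.516 to 0.646, PPDE 0.865).

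Apart from αv, *Itgb3* pairs with *Itga2b* on megakaryocytes and platelets. *Itga2b*, which is not a member, had 344 and 253 normalized counts (ratio 0.736, 0.669 to 0.809, PPDE 0.0987). The 8 megakaryocyte markers listed summed to 388 normalized counts in Tip55+/+ and 303 in Tip55Δ/Δ embryos, and 2 of 8 were at 0 in a genotype. Among them 0 of 8 were called, beside 7.11% of all genes called lower and 5.25% higher. Their part in the *Itgb3* values was not tested. *Itgb4*, the hemidesmosome partner of α6, had 162 and 116 (ratio 0.713, 0.619 to 0.820, PPDE 0.245), and it overlaps *B230344G16Rik*. *Itgb7*, a leukocyte subunit, had 15.5 and 17.2 (ratio 1.11, 0.729 to 1.68).

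**Figure D3:**
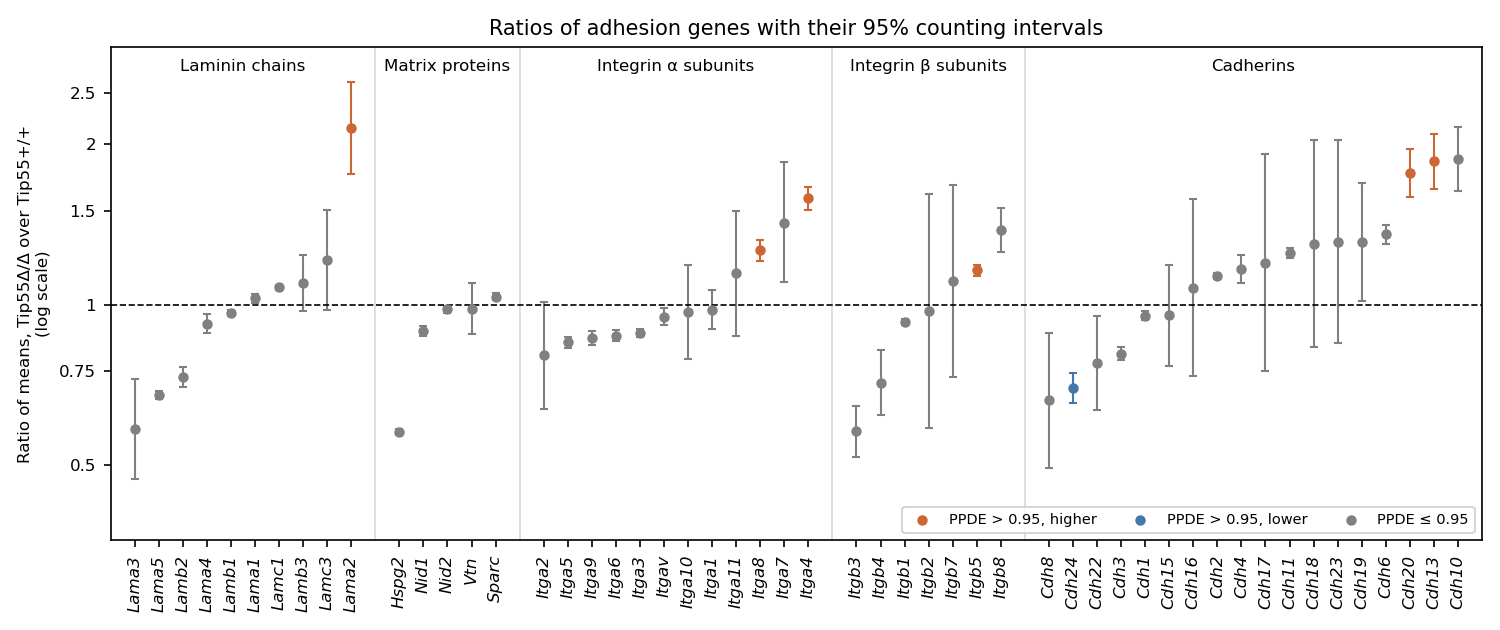
Ratio of mean normalized counts, Tip55Δ/Δ over Tip55+/+ (log axis), of adhesion genes with a mean of at least 10, sorted within each family; bars are 95% exact binomial intervals that cover counting error only. Colours give the PPDE call. *Lama2* is the highest called point, *Cdh24* is the single called point under 1, and *Hspg2* has one of the narrowest intervals and no call.

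The cadherins that define the main epithelia and the neural tube were not called. *Cdh2* had 11653 normalized counts in Tip55+/+ and 13193 in Tip55Δ/Δ embryos (ratio 1.13, 1.12 to 1.15, PPDE 0.00748). *Cdh1* had 6494 and 6190 (ratio 0.953, 0.934 to 0.973, PPDE 0.00473). *Cdh3*, P-cadherin, which lies 46.1 kb upstream of *Cdh1* on chromosome 8, had 3751 and 3032 (ratio 0.808, 0.786 to 0.831, PPDE 0.279). *Cdh4*, R-cadherin, had 660 and 768 (ratio 1.16, 1.10 to 1.24, PPDE 0.142), and the mesenchymal cadherin *Cdh11* had 4669 and 5831 (ratio 1.25, 1.22 to 1.28, PPDE 0.769). Per kilobase, *Cdh2* came first and *Cdh1* second in both genotypes, while *Cdh3* was above *Cdh11* in Tip55+/+ (856 and 827) and below it in Tip55Δ/Δ embryos (692 and 1033). This change of order too depends on the length used, since per kilobase of the mean transcript length *Cdh11* was above *Cdh3* in both (1229 and 856 in Tip55+/+, 1535 and 692 in Tip55Δ/Δ embryos).

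The 3 called cadherins had lower means than *Cdh1*, *Cdh2*, *Cdh3* and *Cdh11* in both genotypes. *Cdh20*, a type II cadherin on chromosome 1 from 104768529 to 104995481, rose from 188 to 331 normalized counts (ratio 1.76, 1.59 to 1.96, PPDE 0.999997). *Cdh13*, the GPI-anchored T-cadherin that lacks a cytoplasmic tail, rose from 141 to 263 (ratio 1.86, 1.65 to 2.10, PPDE 0.99972). It spans chromosome 8 from 118283733 to 119324921. *Cdh24*, a type II cadherin on chromosome 14 from 54631231 to 54641364, fell from 737 to 513 (ratio 0.696, 0.652 to 0.743, PPDE 0.987). *Cdh10*, on chromosome 15, had 107 and 200 (ratio 1.87, 1.63 to 2.15), a ratio as high as that of *Cdh13*, with a PPDE of 0.908.

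Of the 22 cadherins, 15 had a PostFC over 1, beside 10368 of the 20280 genes listed. Means were under 10 for 4 of the 22 and from 10 to 100 for 8 more. The counting interval included 1 for 8 of the 22. The family median log2 PostFC was 0.20. It was −0.061 for the integrin α subunits, −0.072 for the β subunits, 0.038 for the laminin chains and −0.028 for the matrix genes. Among the cadherins with a mean of at least 10, the largest uncalled differences in the other direction were those of *Cdh8*, with 40.6 and 26.8 normalized counts (ratio 0.661, 0.493 to 0.883, PPDE 0.126) and an overlap with *Gm15679*, and *Cdh22*, with 74.2 and 57.6 (ratio 0.776, 0.633 to 0.951, PPDE 0.115). With the GC trend removed, the log2 value of *Cdh22* went from −0.36 to −0.03. *Cdh7* and *Cdh19*, on chromosome 1 with *Cdh20*, were not called, nor were the 5 cadherins on chromosome 15, and *Cdh13* was the called gene among 7 on chromosome 8. *Cdh9*, picked out after its values were seen, had 0.912 and 5.59 normalized counts. Its Tip55+/+ counts were under the floor of 3 summed counts, its ratio of 6.13 had an interval from 1.70 to 36.2, and its PPDE was 3.61e-14. It overlaps *Gm49127*. The 16 members outside the naming rule, *Cdh9* among them, were all uncalled, and the 11 of them with a mean of at least 10 had ratios from 0.954 to 1.36.

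Proteins inside the cell connect integrins to actin. Of 19 such adaptor genes, 4 fell and 0 rose. They were *Tln1* (talin, the direct activator of integrins), which went from 13886 normalized counts to 10785 at a PPDE of 0.955, *Zyx* (zyxin), from 9214 to 7031 with a PPDE of 0.970, *Src*, from 2487 to 1947, and the kindlin *Fermt1*, from 746 to 606 with a PPDE of 0.952. Their ratios lay between 0.763 and 0.813. The median log2 PostFC of the 19 was −0.15, and with the trend of fold change on transcript GC content removed it was −0.070. That correction moved *Src* from −0.35 to −0.13, *Tln1* from −0.36 to −0.21, *Zyx* from −0.39 to −0.24 and *Fermt1* from −0.30 to −0.31. *Tln1* and *Fermt1* passed the threshold narrowly. Of all genes listed, 7.11% were called lower and 5.25% higher. A mean of at least 100 was reached by 18 of the 19 adaptors. Of the 12381 genes with such a mean, 1367 were called lower and 933 higher.

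Genes that cut or protect the matrix included 4 that fell among 12, with 0 that rose, beside 7.11% of all genes called lower and 5.25% called higher. *Mmp14*, the membrane-bound protease that activates pro-MMP2, fell to 1872 normalized counts from 4185 in Tip55+/+ embryos (ratio 0.447, 0.433 to 0.462). *Mmp15* fell from 5104 to 3644 (ratio 0.714, 0.696 to 0.732), *Mmp11* from 831 to 627 (ratio 0.754, 0.710 to 0.801, PPDE 0.991), and the inhibitor *Timp2* from 2392 to 1975 (ratio 0.826, 0.798 to 0.855, PPDE 0.999964). With the GC trend removed, the log2 value of *Mmp15* went from −0.49 to −0.25 and that of *Mmp14* from −1.16 to −1.06. The list holds both proteases and inhibitors of proteases. Of the 12, 4 had a PostFC over 1 and 8 had one under 1. The inhibitor *Timp3*, picked out after its values were seen, had 1632 and 2250 normalized counts (ratio 1.38, 1.33 to 1.43, PPDE 0.941). All 12 had a mean of at least 100, and of the 12381 such genes 1367 were called lower and 933 higher.

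Of 9 catenins and other cadherin-bound proteins, the neuronal α-catenin *Ctnna2* rose from 221 to 302 normalized counts (ratio 1.37, 1.23 to 1.51, PPDE 0.996) and the other 8 were not called. Of 17 further basement membrane genes, *Npnt* alone was called. Of 7 transcription factors of epithelial-mesenchymal transition, which repress *Cdh1* in many settings, 0 were called in either direction, and their ratios ran from 0.711 to 1.28. Of all genes listed, 5.25% were called higher and 7.11% lower. These lists are descriptions, and no list was tested against other genes.

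The fold changes of the more abundant members went with the base composition of their transcripts. Over the 36 members whose mean reached 100 normalized counts, Spearman's rho of log2 PostFC with transcript GC content was −0.57, and over all 12306 such genes it was −0.39. Over all 59 members it was −0.32. Genes are not independent replicates and share the same libraries, so this is a description with no p-value. The called fall, *Cdh24*, had a GC content of 61.2%, and *Hspg2* and *Lama5* had 60.9% and 59.9%. With the trend on GC content over all genes taken away, the log2 value of *Cdh24* went from −0.52 to −0.24, that of *Hspg2* from −0.80 to −0.53, and that of *Lama5* from −0.56 to −0.32. The 7 risers stayed over 0, with *Itgb5* going from 0.21 to 0.37 and *Itga4* from 0.66 to 0.56. Members with a log2 value over 0 then numbered 37 of 59, beside 10978 of the 20280 genes listed.

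**Figure D4:**
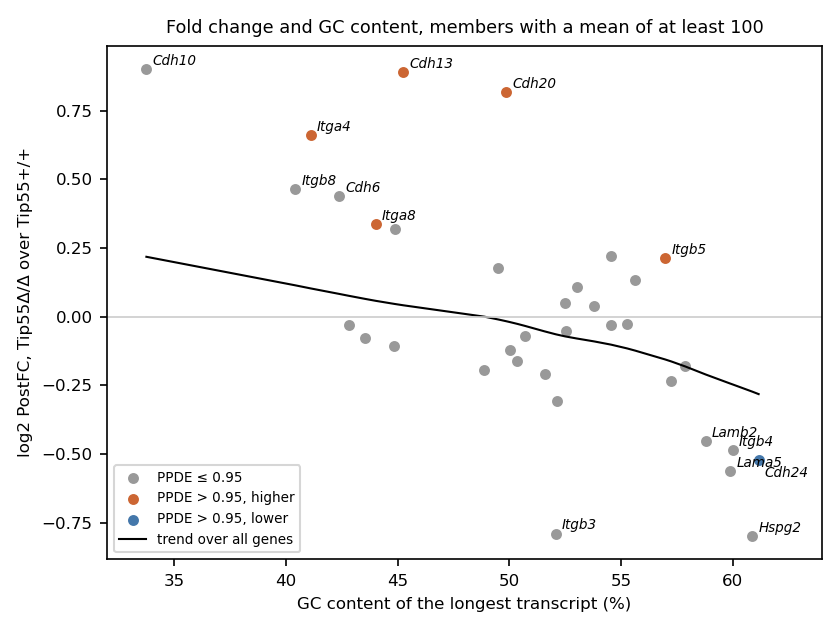
log2 PostFC on the vertical axis and GC content (%) of the longest annotated transcript on the horizontal one, for 35 adhesion genes whose mean reached 100 normalized counts. The line is the trend over all such genes, and colours give the PPDE call. The 5 risers drawn lie above the line, and *Cdh24*, *Lama5*, *Hspg2* and *Lamb2* lie below it at the right.

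Markers of the other cell types that whole-embryo RNA could hold were read beside the members. Every one of 12 visceral endoderm markers had a ratio under 1, from 0.435 to 0.934, and their sum was 190198 normalized counts in Tip55+/+ and 117851 in Tip55Δ/Δ embryos, yet 0 of 12 were called. Their PPDE was at most 0.065 although each counting interval excluded 1. Visceral endoderm makes basement membrane, and its part in the values of *Hspg2* and *Lama5* was not tested. The 7 parietal endoderm markers, from the cells that deposit Reichert's membrane, summed to 8582 and 7744, with 0 of 7 called. The 9 endothelial markers summed to 25942 and 23539, with 0 of 9 called. Over all genes listed, 7.11% were called lower and 5.25% higher.

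All 8 primitive erythroid markers fell, from a sum of 109805 to 7797 normalized counts, with ratios between 0.0571 and 0.104. Of 6 decidua markers, *Prl8a2* fell from 503 to 27.6 normalized counts, while the scarce granzymes *Gzmf* and *Gzmg* rose. Of the 6 trophoblast markers in the table, *Elf5* rose from 44.98 to 95.5, while *Prl3d1* had 26.9 and 6.69 (ratio 0.249, 0.144 to 0.410) and *Prl2c2* had 30.5 and 5.50 (ratio 0.180, 0.0998 to 0.307) without a call. The decidua markers summed to 509 and 96.3 and the trophoblast markers to 724 and 805 normalized counts, most of the latter from *Plac1* (567 and 628). Decidua and trophoblast surround the embryo, and their part in the values of *Itga4* or another member was not tested. The 5 neural, 6 cardiac, 4 neural crest and 5 presomitic mesoderm and somite markers had 0 calls. The shares over all genes listed were 7.11% called lower and 5.25% called higher, so few calls would fall in lists this short. The neural markers summed to 18250 and 17928 normalized counts, the cardiac markers to 46382 and 59459, the neural crest markers to 8989 and 8331, and the presomitic mesoderm and somite markers to 6589 and 5983. Single ratios ran from 0.695 to 1.57 in the cardiac list and from 0.391 to 1.84 in the presomitic mesoderm and somite list. The targeted gene *Kat5*, summed over its isoforms, was called lower. It fell from 2218 to 1615 normalized counts (ratio 0.728, 0.701 to 0.756, PPDE 0.999985). These sums give no level of the Tip55 isoform. The paper states that the allele leaves expression of the remaining isoforms unaltered. It also found Tip55 at lower levels than the other isoforms it assayed by RT-qPCR. Which isoforms account for the lower *Kat5* sum was not tested.

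**Figure D5:**
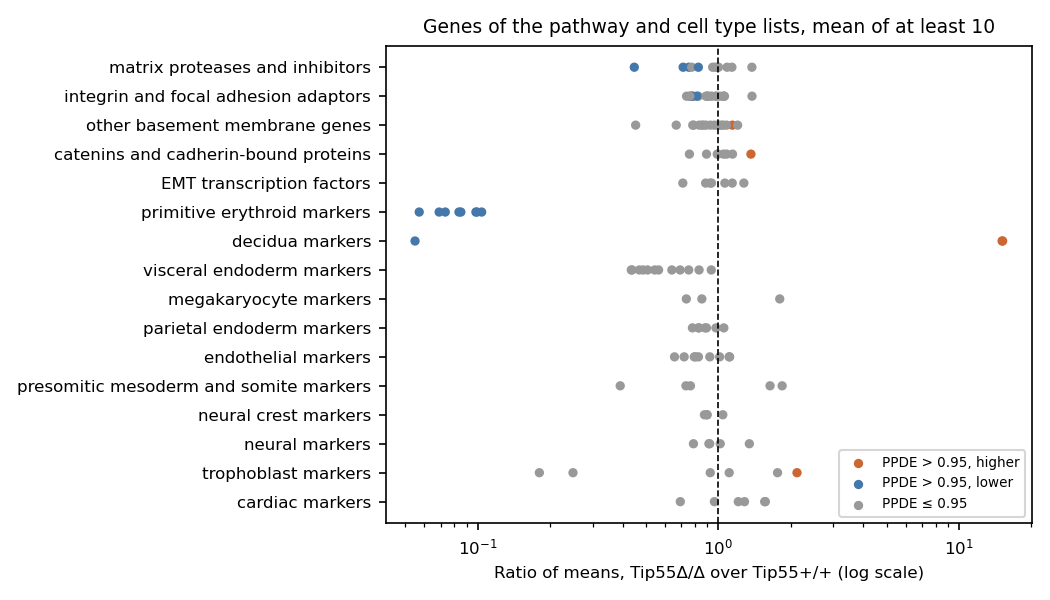
Ratio of mean normalized counts, Tip55Δ/Δ over Tip55+/+ (log axis), of each gene with a mean of at least 10 in the pathway lists (upper 5 rows) and the cell type marker lists (lower 11 rows). Colours give the PPDE call. The adaptor and protease lists hold blue points only among their calls, the erythroid markers lie near 0.1, and the visceral endoderm markers lie under 1 without a call.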

How the data were processed

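RNA of E8.5 FVB/N embryos was enriched for mRNA, and libraries that do not keep the strand were sequenced in the BGI-seq format. With mm10 as the genome, the authors used RSEM to quantify reads and then compared 3 Tip55+/+ with 3 Tip55Δ/Δ libraries in EBSeq. The deposited table holds that comparison alone: per gene the linear ratio of normalized means (RealFC), the fold drawn toward 1 (PostFC), and the posterior probabilities of equal and of differential expression (PPEE, PPDE). These deposited posterior probabilities lie on a scale from 0 to 1, as a score and not a p-value. Both means are offset by 0.01 in RealFC. The offset in PostFC, 0.514 normalized counts, was estimated from 106 genes at 0 in Tip55Δ/Δ and 121 at 0 in Tip55+/+, and both means were solved from the 2 ratios. They are unavailable for 8 genes with a rounding error over 5%, *Fn1* among them. The depth of a single library is unknown, so precision is given from summed normalized counts, and a fold against fewer than 3 summed counts is given only with its interval.

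Members were chosen by symbol. Members, lists and tests were chosen with earlier results of these data known. Genes named are called members, laminin chains and matrix genes, the main cadherins and integrins, the 3 largest differences per family and direction with a mean of at least 10, and called genes of the pathway lists. A result that this rule covers is not reported here. Symbols were matched to the GENCODE vM21 annotation of GRCm38 for 19996 genes, 706 of them through RefSeq synonyms, and levels are per kilobase of the longest transcript. The GC trend is a lowess curve (span 0.3) fitted to the 12306 genes whose mean reached 100. The recovery and the trend removal were tested on simulated data. Python 3.11.15, scipy 1.17.1 and statsmodels 0.14.6 were used. Other PPDE thresholds, RealFC, centring, GC removal, a mean filter and leaving out overlapping genes or single members were tried.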

Additional observations from a re-analysis of the deposited data

How the results depend on the processing

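Calls by direction depended on the threshold for the single fall. At a PPDE threshold of 0.99, 0 members were lower and 6 higher, and at 0.9, 2 were lower and 8 higher. Among the 43 members whose exons overlap no other gene, which leaves out *Itga4*, *Itga8* and *Lama2*, 4 were higher and 1 lower. The matching shares over all genes were not worked out at these settings. These counts therefore do not show whether the members differ from other genes there. No called member changed sign with RealFC, with centring on all genes or with the GC trend removed. Of the 43 members named by rule, *Itga3*, *Lamb1*, *Nid2* and *Vtn* changed sign once the GC trend was removed and *Fn1* did so on centring, none of them called. The median log2 PostFC of the members lay between −0.011 and 0.021 when each member was left out in turn. With the GC trend removed it was 0.090, beside 0.030 over all genes listed. The laminin median went from 0.038 to 0.13 and the matrix median from −0.028 to 0.080 under that correction, and the cadherin median stayed between 0.18 and 0.23 under every alternative tried. The gene with the highest level per kilobase in Tip55+/+ embryos stayed the same with the mean transcript length in the 4 families other than the matrix genes, where *Fn1* has no recovered mean. No paired analysis was possible because the table holds no value per library, and leaving out single replicates was not run for the same reason.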
